A study of Mus musculus with 46 samples.

Results

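The 3 mouse RNA libraries labelled Rbbp5 knockout (KO) epiblast at embryonic day (E) 5.5 were set against the 3 libraries labelled wild-type (WT) E5.5 epiblast, across the 7182 genes of the deposited table. These 6 libraries are all the E5.5 RNA libraries among 46 samples, of which 33 are RNA libraries, and they were chosen by label alone. Per the labels, each holds the epiblast of a single embryo, cut out by hand after recovery from the uterus. KO embryos came either from wild-type zygotes injected with Cas9 mRNA and a guide RNA against Rbbp5 or from Rbbp5 flox/flox zygotes injected with Cre mRNA, and then developed in recipient females. Which route gave which library, whether WT embryos were also injected, and their strain are not given in the sources used here. Each KO embryo is therefore its own founder. The RNA of Rbbp5 was not analysed here, so the KO label was taken as given and not checked from these data. The labels do not say whether the embryos of a group shared a litter, and p-values measure the spread between these libraries only. The 7 KO and 7 WT libraries of the E3.5 inner cell mass (ICM), the cluster of cells in the blastocyst that gives rise to the epiblast, were used for 1 comparison of effects.

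RBBP5 is a core subunit that the complexes writing methylation on lysine 4 of histone H3 (H3K4) share, together with WDR5, ASH2L and DPY30. H3K4 methylation marks active promoters and enhancers and keeps DNA methyltransferases away from CpG islands. At E5.5 the epiblast is a cup of pluripotent cells that has left the naive state of the blastocyst and turned on formative genes such as Otx2 and the de novo DNA methyltransferases. It is capped by the extraembryonic ectoderm, which descends from the trophectoderm and maintains trophoblast stem cells, and both are wrapped in visceral endoderm.

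Measures of library quality overlapped between the groups. KO libraries had 5597, 5457 and 5895 genes at 1 FPKM or more (fragments scaled to transcript length and library total), against 5784, 5805 and 5738 in WT libraries, a difference in means of -126 genes (exact permutation test, two-sided, p = 0.4, where 0.1 is the smallest that 3 against 3 can give). The 10 highest genes held 11.98% to 14.99% of the summed FPKM in KO libraries and 11.99% to 12.58% in WT libraries. Depth is not given by FPKM, but steps between low values placed the most deeply sequenced of the 6 libraries 1.52-fold above the shallowest, with the KO and WT libraries interleaved. The summed FPKM of 3 Y-linked genes and the level of Xist marked KO library 1 as the one female among the 6.

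The KO libraries went against the tissue in their label. Genes that define the E5.5 epiblast were low in all 3, and genes of trophoblast and extraembryonic ectoderm that were near 0 in WT stood well above it in all 3. Pou5f1, which encodes the pluripotency factor OCT4 (chromosome 17, 35506032 to 35510777, GRCm38), had 4.57, 5.07 and 19.9 FPKM in KO libraries 1, 2 and 3, against 190.4, 126 and 103 FPKM in WT libraries. Elf5, a transcription factor of trophoblast stem cells (chromosome 2, 103412098 to 103450989), had 31.6, 30.1 and 33.4 FPKM in KO libraries, against 0, 0 and 0.0451 FPKM in WT libraries. The groups did not overlap for either gene, and over all tested genes 22.6% had every KO library above every WT library and 26.6% every KO library below. The KO libraries stood apart from every WT library in both directions at once. In bulk samples fewer cells of a type and less RNA per cell cannot be told apart. RNA from extraembryonic cells within the dissected piece and expression by cells of the epiblast cannot be told apart here either, and this touches every difference given below. The libraries are called KO and WT after their labels, without a claim that the KO libraries hold epiblast.

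The promoters of 2 genes of each kind are shown for the contrast in CpG, the dinucleotide that carries DNA methylation and that CXXC1, a subunit of the H3K4 methyltransferases, binds when it is unmethylated. Each runs 5′ to 3′ from 250 bases before to 50 bases after an annotated start (RefSeq, GRCm38.p6), with every CG in capitals. Elf5 and Gjb5 were higher in KO libraries and Pou5f1 and Dnmt3b lower, and the 4 were picked after their values were seen. Their positions are chr2:103411848-103412147 on the plus strand for Elf5, chr4:127358115-127358414 on the minus strand for Gjb5, chr17:35505782-35506081 on the plus strand for Pou5f1 and chr2:153649199-153649498 on the plus strand for Dnmt3b.
Elf5: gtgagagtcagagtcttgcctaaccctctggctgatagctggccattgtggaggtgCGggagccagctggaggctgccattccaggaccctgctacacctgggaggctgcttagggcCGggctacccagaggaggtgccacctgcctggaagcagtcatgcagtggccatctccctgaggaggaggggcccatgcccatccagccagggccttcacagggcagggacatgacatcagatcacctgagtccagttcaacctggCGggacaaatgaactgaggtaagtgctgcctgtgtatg
Gjb5: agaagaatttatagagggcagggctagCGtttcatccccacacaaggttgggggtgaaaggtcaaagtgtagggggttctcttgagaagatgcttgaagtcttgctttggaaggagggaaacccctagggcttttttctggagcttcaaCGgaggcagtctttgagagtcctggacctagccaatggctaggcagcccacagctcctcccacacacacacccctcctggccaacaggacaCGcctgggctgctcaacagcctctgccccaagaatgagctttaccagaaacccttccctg
Pou5f1: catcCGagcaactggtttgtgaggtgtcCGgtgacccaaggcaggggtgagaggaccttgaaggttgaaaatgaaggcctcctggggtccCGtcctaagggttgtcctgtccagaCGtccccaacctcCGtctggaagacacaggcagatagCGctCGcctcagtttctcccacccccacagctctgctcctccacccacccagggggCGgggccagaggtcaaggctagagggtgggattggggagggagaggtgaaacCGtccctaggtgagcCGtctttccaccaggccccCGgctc
Dnmt3b: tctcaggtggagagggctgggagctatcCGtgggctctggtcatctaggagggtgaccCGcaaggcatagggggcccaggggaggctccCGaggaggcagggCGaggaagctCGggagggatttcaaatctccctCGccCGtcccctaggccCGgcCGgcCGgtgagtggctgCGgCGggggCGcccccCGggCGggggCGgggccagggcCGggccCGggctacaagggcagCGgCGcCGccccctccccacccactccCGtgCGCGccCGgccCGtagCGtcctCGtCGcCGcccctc
The Elf5 and Gjb5 windows hold 3 CG each, the Pou5f1 window 11 and the Dnmt3b window 30. At least 1 CG (the same on both strands) stands in 94.2% of the 27025 promoter windows of the annotation, with a median of 7. The medians over all tested genes did not show this contrast. Genes higher in KO had a median of 20 CG (748 of 928 genes matched), genes lower in KO 20 (905 of 1104) and genes not called 22 (3214 of 3924). Windows with 5 CG or fewer made up 9.36% of the genes higher in KO, 6.41% of those lower and 5.04% of those not called, given as a description.

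Of 5956 genes tested (mean of at least 1 FPKM over the 6 libraries), 2032 passed an adjusted p of 0.05 with limma on log2(FPKM + 1), which is 34.1% of the genes tested. In KO libraries 928 genes were higher (15.6%) and 1104 lower (18.5%). At least 2-fold changes were made by 615 of the genes that were higher and 753 of those that were lower. The extremes lay on one side: 97 genes were higher by a log2 change of 3 or more, and 25 were lower by as much. Over all genes tested the median change was -0.07 in log2 units. The number of called genes was 702 when the spread was estimated over the 20 embryo libraries together, and to 1221 and 1301 without WT library 1 or 2.

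**Figure D1:**
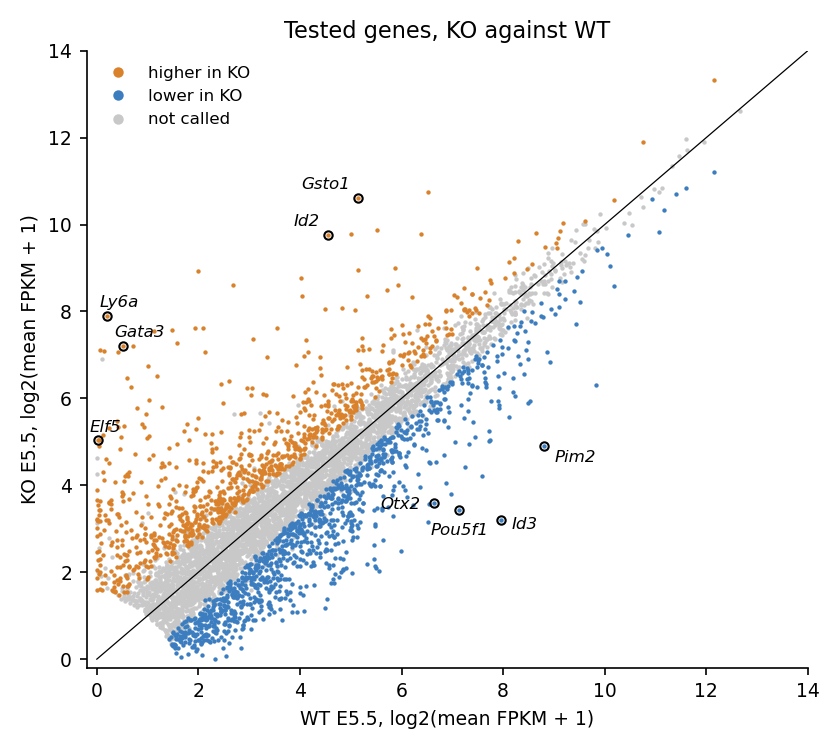
Mean level of the 5956 tested genes in KO E5.5 libraries (vertical) against WT E5.5 libraries (horizontal), both as log2(mean FPKM + 1), with the line of equality. Points are coloured by the limma call (928 higher, 1104 lower in KO). The genes that rise along the left edge, such as Ly6a, Gata3 and Elf5, are near 0 in WT.

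Trophoblast genes were among those with the largest increases. Of 21 tested members of the trophectoderm and trophoblast list, 18 were higher in KO libraries and 0 lower, beside 15.6% and 18.5% over all tested genes. Their median log2 change was 4.64. Of the 23 members in the table, 10 were under 1 FPKM in every WT library. Those of the 10 that were tested passed the filter through their KO values and could not come out lower. The list summed to 5477, 2888 and 2918 FPKM in KO libraries 1, 2 and 3, against 240.6, 210.3 and 244 FPKM in WT libraries. The extraembryonic ectoderm list had 8 of 10 tested members higher and 0 lower, a median of 2.93 (1.73 to 5.33 over the alternatives), and sums of 571, 285 and 299 FPKM in KO libraries against 18.3, 17.6 and 16.7 FPKM in WT libraries. Of its 12 members in the table, 7 were under 1 FPKM in every WT library, and the same limit applies to them. Both lists were chosen with earlier results of these data known. The 2 lists share 3 genes, and Cdx2, a factor that founds the trophectoderm and stands on both, was too low to test, with 0, 3.21 and 0.828 FPKM in KO libraries and 0 in each WT library.

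Ly6a, the surface protein SCA-1 (chromosome 15, 74994877 to 74998031), had the largest change of all named genes. It had 286, 214 and 214 FPKM in KO libraries, against 0.164, 0 and 0.306 FPKM in WT libraries (log2 change 7.69, SE 0.23, adjusted p = 2.97e-08). Gata3, a transcription factor that drives trophectoderm fate, had 241.4, 88.8 and 112 FPKM in KO libraries, against 0.555, 0.129 and 0.596 FPKM in WT libraries (6.58, SE 0.36, adjusted p = 1.83e-06). For both genes no WT library reached 1 FPKM and no KO library was below 88.8 FPKM. Krt19, a keratin of simple epithelia, had 266, 154 and 149.7 FPKM in KO libraries, against 2.77, 0.918 and 1.69 FPKM in WT libraries (6.10, SE 0.31). Gjb5, a connexin of trophoblast gap junctions, had 249, 83.5 and 109.6 FPKM in KO libraries, against 0.915, 0.430 and 0.542 FPKM in WT libraries (6.36, SE 0.37). In both KO library 1 was the highest, and no KO library came near the WT range.

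Id2, an inhibitor of basic helix-loop-helix factors that marks trophectoderm, had the second smallest adjusted p of all genes. Its levels were 959, 783 and 873 FPKM in KO libraries, against 24.0, 19.03 and 24.6 FPKM in WT libraries (log2 change 5.22, SE 0.17, adjusted p = 4.02e-08). Fgfr2, the FGF receptor through which the epiblast's FGF4 sustains trophoblast stem cells, had 91.2, 21.5 and 49.2 FPKM in KO libraries, against 0.248, 1.15 and 0.773 FPKM in WT libraries (4.80, SE 0.46). Wnt7b, a WNT ligand, had 9.37, 7.81 and 6.85 FPKM in KO libraries, against 0, 0 and 0.0572 FPKM in WT libraries. Thus a receptor, a ligand and a nuclear factor of trophoblast were each high in all 3 KO libraries. Among the others, chosen after their values were seen, Krt8 (4.64), Krt18 (3.35) and Tead4 (3), the factor that starts the trophectoderm programme, also rose, and pseudogene copies of the keratins make their FPKM uncertain.

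**Figure D2:**
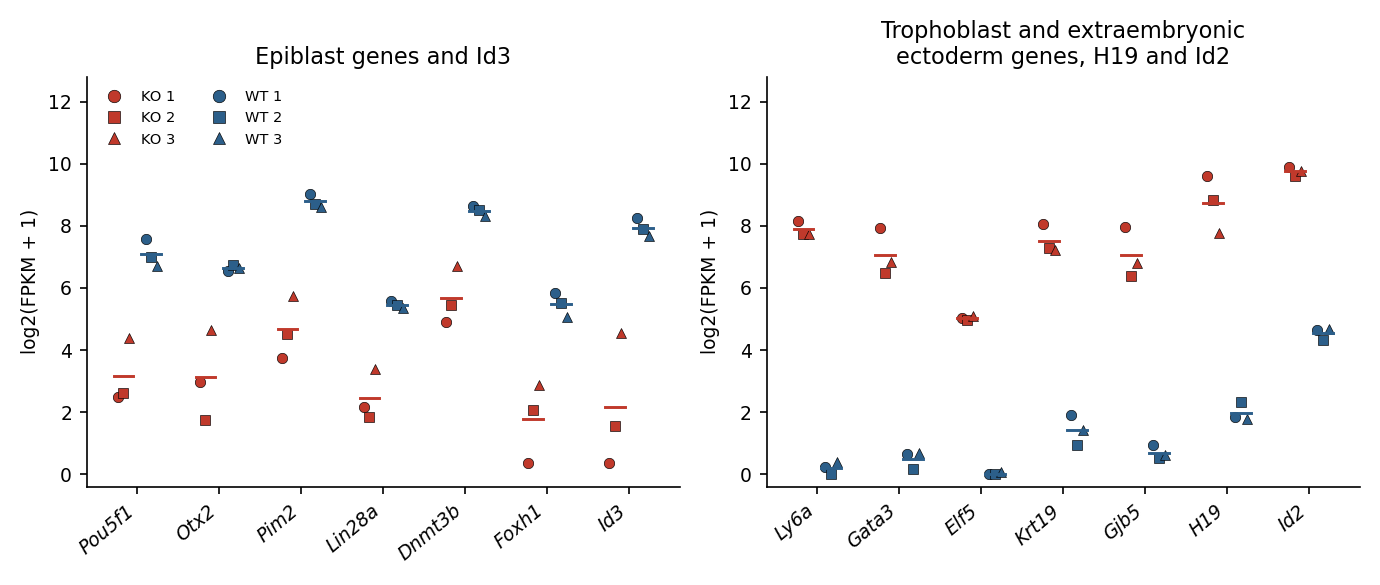
Levels of 7 genes lower in KO (left panel) and 7 higher in KO (right panel), as log2(FPKM + 1), in the 3 KO (red) and 3 WT (blue) E5.5 libraries. Symbols mark the library number and bars the group mean. No gene's groups overlap, and KO library 3 (triangle) is the KO library nearest to WT for the 7 genes on the left.

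Large increases were also made by genes outside the trophoblast and extraembryonic ectoderm lists. Tinagl1, a matricellular protein, had 180.2, 99.9 and 126 FPKM in KO libraries, against 0.0603, 0 and 0.247 FPKM in WT libraries (log2 change 6.92, SE 0.27). Ndrg1, a gene of differentiating and hypoxic trophoblast, had 260.1, 173 and 127 FPKM in KO libraries, against 1.57, 1.01 and 0.967 FPKM in WT libraries (6.37, SE 0.28). Plaur, the urokinase receptor, had 136, 93.3 and 90.2 FPKM in KO libraries, against 0.668, 1.32 and 1.002 FPKM in WT libraries (5.74, SE 0.25). These 3 encode secreted or stress-related proteins and a surface receptor, and none had a WT library above 2 FPKM. Gsto1, a glutathione transferase of the omega class, reached 1310, 1334 and 2067 FPKM in KO libraries, against 38.2, 25.5 and 39.8 FPKM in WT libraries (5.46, SE 0.23). Ddah1, which breaks down an inhibitor of nitric oxide synthase, rose by 5.95. Anxa2 (5.61), a calcium-dependent membrane-binding protein, rose as well, and so did S100a6 (5.92), a calcium-binding protein, and Lgals3 (5.44), a galectin, both from the trophoblast list. Gsta1, a glutathione transferase of the alpha class, had 304, 62.2 and 44.4 FPKM in KO libraries, against 0.150, 0 and 0 FPKM in WT libraries, and its reads may be shared with the close copy Gsta2.

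Genes of the epiblast went the other way. In the core pluripotency list 6 of 9 tested members were lower in KO libraries and 0 higher, with a median log2 change of -2.29. In the formative and primed list 8 of 11 were lower and 0 higher, with a median of -2.41. Over all tested genes 18.5% were lower and 15.6% higher. The core list summed to 438, 501 and 743 FPKM in KO libraries, against 1549, 1436 and 1511 FPKM in WT libraries. The formative list summed to 137, 135 and 409 FPKM in KO libraries, against 1534, 1316 and 1280.0 FPKM in WT libraries. The lists share Otx2. As fractions of the WT mean, the KO sums were 29.2%, 33.4% and 49.6% for the core list and 9.97%, 9.79% and 29.7% for the formative list. Utf1 and Sall4 made up most of the core sum in every library. They had 207 to 391 FPKM and 123 to 176 FPKM in KO libraries. The core fractions thus mainly reflect Utf1 and Sall4, and do not show that core genes in general fell less than formative genes.

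Otx2, the transcription factor that moves the epiblast out of the naive state, had 6.85, 2.38 and 24.2 FPKM in KO libraries, against 92.8, 104.7 and 99.2 FPKM in WT libraries (log2 change -3.51, SE 0.62, adjusted p = 0.00418). Pim2, a survival kinase, had 12.3, 21.8 and 53.1 FPKM in KO libraries, against 525, 419 and 390.0 FPKM in WT libraries (-4.12, SE 0.44, adjusted p = 0.000391). Pou5f1 fell by 3.94 (SE 0.49, adjusted p = 0.000785), with the reservation that its pseudogene copies may share reads. In each of these 3 genes KO library 3 was the highest KO library and still far below the lowest WT library. Lin28a, an RNA-binding repressor of let-7, had 3.47, 2.59 and 9.47 FPKM in KO libraries, against 47.2, 42.4 and 39.99 FPKM in WT libraries. Etv5, an ETS factor downstream of FGF signalling, had 8.13, 14.2 and 21.1 FPKM in KO libraries, against 101, 80.9 and 61.8 FPKM in WT libraries. Hmga1, an architectural chromatin protein with near-identical copies in the genome, had 18.6, 82.4 and 133 FPKM in KO libraries, against 1082, 863 and 787 FPKM in WT libraries.

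Not all genes of the epiblast passed the test. Sall4, a zinc finger factor that trophoblast also expresses, had 168, 123 and 176 FPKM in KO libraries, against 175, 192 and 231 FPKM in WT libraries (log2 change -0.36, adjusted p = 0.159). Sox2, low in all 6 libraries and used by trophoblast stem cells too, had 0.904, 1.16 and 3.49 FPKM in KO libraries, against 4.86, 2.302 and 3.22 FPKM in WT libraries (-0.71, adjusted p = 0.17). Both were chosen after their values were seen. Utf1, a chromatin-bound pluripotency factor, kept 207, 293 and 391 FPKM in KO libraries, against 821, 697 and 688 FPKM in WT libraries (-1.35, adjusted p = 0.0015, or 0.0763 when the spread came from the 20 embryo libraries).

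**Figure D3:**
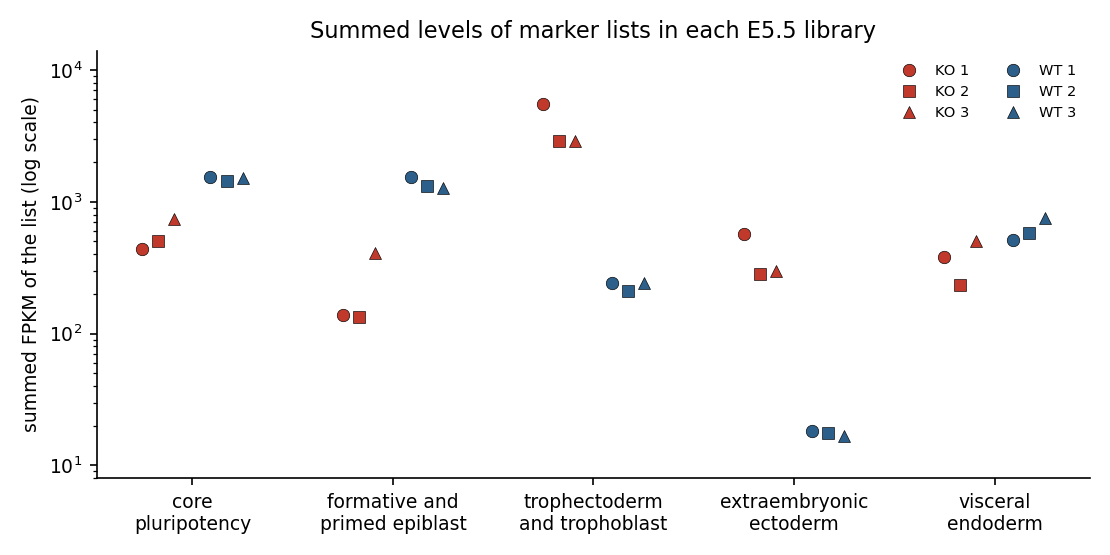
Summed FPKM of all members in the table (log scale) for 5 marker lists in the 3 KO (red) and 3 WT (blue) E5.5 libraries. Core and formative pluripotency sums are lower and trophoblast and extraembryonic ectoderm sums higher in each KO library. Visceral endoderm sums run from 234 to 504 FPKM in KO and from 509 to 752 FPKM in WT, and are mostly Cldn6, Emb and Cst3.

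Markers of the other tissues that a dissected piece could hold changed in both directions. Of the 18 primitive endoderm markers measured, 12 were too low to test, and so were 12 of 18 visceral endoderm markers. The defining endoderm factors Gata6, Gata4, Sox17, Sox7, Foxa2 and Hnf4a had at most 0.256 FPKM in any KO library and at most 0.214 in any WT library. Of the 6 tested members of each list, 4 were higher and 1 lower for primitive endoderm and 1 higher and 2 lower for visceral endoderm. Over all tested genes 15.6% were higher and 18.5% lower. Fgfr2, on the extraembryonic ectoderm list too, is one of the 4 that were higher for primitive endoderm. Summed primitive endoderm markers, Fgfr2 included, were 129, 54.4 and 95.8 FPKM in KO libraries, against 27.2, 31.7 and 24.0 FPKM in WT libraries. Summed visceral endoderm markers were lower in KO libraries, at 378, 234 and 504 FPKM, against 509, 582 and 752 FPKM in WT libraries. Cldn6, Emb and Cst3 made up most of these sums, and Cldn6 and Emb carried the fall. Cldn6 had 20.9, 58.8 and 182 FPKM in KO libraries, against 262, 252 and 357 FPKM in WT libraries. Emb had 131.5, 36.0 and 119 FPKM in KO libraries, against 186, 268 and 318 FPKM in WT libraries. Both calls ended without WT library 1, 2 or 3, and when the spread came from the 20 embryo libraries (adjusted p = 0.130 and 0.280). Cst3, an inhibitor of cysteine proteases, rose by 1.59, while Lamb1, a laminin chain of basement membrane, had 0.223, 0.456 and 3.91 FPKM in KO libraries, against 5.85, 10.02 and 9.23 FPKM in WT libraries. The parietal endoderm list had 2 of 6 higher and 2 lower, among them Nid1 (4.03), a basement membrane protein. Of decidua markers 1 of 3 was higher, Htra1 (3.44), a secreted protease. Of blood markers Coro1a (-2.57), an actin regulator of leukocytes, fell and Car2 (1.85) rose, and of endothelial markers 1 of 2 was higher, Pecam1 (1.48), which is also a gene of the naive state. Summed decidua markers lay between 9.01 and 50.6 FPKM in KO libraries and between 3.97 and 8.78 FPKM in WT libraries. The call of Car2 ended without KO library 2 (log2 change 1.39, adjusted p = 0.139), KO library 3 (1.55, 0.143) and each WT library (1.69 to 1.97, 0.0671 to 0.126), and those of Lamb1 and Pecam1 when the spread came from the 20 embryo libraries (0.0702 and 0.158). Car2 also lost its call in that fit (adjusted p = 0.0666) and with a pseudocount of 5 (0.0637).

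The inhibitors of differentiation parted. Id3, a target of BMP signalling that the epiblast expresses, had 0.295, 1.97 and 22.2 FPKM in KO libraries, against 302, 238 and 205 FPKM in WT libraries (log2 change -5.78, SE 0.90, adjusted p = 0.00247), the largest fall among the named genes. Its relative Id1 had 1.32, 11.7 and 17.5 FPKM in KO libraries, against 74.7, 32.6 and 36.8 FPKM in WT libraries (-2.49, adjusted p = 0.0313). Id2 rose by 5.22, as given above, so members of 1 family stood at opposite ends. Smad5, a transducer of BMP signals, fell by 1.13. Of 5 tested BMP pathway genes 1 was higher and 3 lower, beside 15.6% and 18.5% over all tested genes. The calls of Id1 and Smad5 ended without WT library 1 (-2.13, adjusted p = 0.113, and -1.09, 0.0641) and without WT library 3 (-2.63, 0.0563, and -1.07, 0.0560), and that of Id1 also without WT library 2 (-2.71, 0.0644) and KO library 2 (-2.81, 0.0776) and with replicate number as a block (0.0650). Smad5 also lost its call when the spread came from the 20 embryo libraries (adjusted p = 0.146).

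In the Nodal pathway, which keeps the epiblast pluripotent and signals to its neighbours, as many tested genes were higher as lower. The lower ones are given first. Tdgf1, the co-receptor Cripto, had 35.3, 31.8 and 94.4 FPKM in KO libraries, against 180.5, 239 and 304 FPKM in WT libraries. Foxh1, the DNA-binding partner of SMAD2, had 0.287, 3.19 and 6.38 FPKM in KO libraries, against 55.9, 45.0 and 32.5 FPKM in WT libraries. Gdf3, a ligand of the family, fell by 2.68. Nodal itself, with 1.05, 1.32 and 11.9 FPKM in KO libraries and 15.8, 8.53 and 15.9 FPKM in WT libraries, did not pass (log2 change -1.82, adjusted p = 0.064), but passed without KO library 3 (-2.68, adjusted p = 0.000216), with replicate number as a block (0.0155) and when quantile normalized (-1.71, adjusted p = 0.0331). Pcsk6, a convertase that extraembryonic ectoderm secretes to cut the Nodal precursor, went the other way, with 16.3, 11.6 and 11.9 FPKM in KO libraries, against 0.369, 0.658 and 0.880 FPKM in WT libraries. Smad3 (1.81) and Smad7 (1.28), an effector and an inhibitor, also rose, Smad7 without a call when the spread came from the 20 embryo libraries (adjusted p = 0.206). Of 15 tested members 3 were higher and 3 lower, beside shares over all tested genes of 15.6% and 18.5%, and the list's median was 0.22 (-1.1 to 0.56 over the alternatives).

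FGF signalling split between ligand and receptor. Fgf4, the ligand made by the epiblast, had 2.14, 1.11 and 7.002 FPKM in KO libraries, against 16.98, 14.3 and 13.7 FPKM in WT libraries (log2 change -2.08, adjusted p = 0.00565, or 0.0567 when the spread came from the 20 embryo libraries), while its receptor Fgfr2 rose. Of the target genes of the ERK cascade, Etv5 fell by 2.47 and Fos rose by 4.41, with 19.8, 28.5 and 21.4 FPKM in KO libraries, against 0.104, 0 and 0.287 FPKM in WT libraries. In total 3 of 9 tested members of the FGF list were higher and 3 lower, beside 15.6% and 18.5% over all tested genes. In the WNT list 2 of 10 were higher and 2 lower, among them Wls, the carrier that WNT ligands need for secretion, with 38.8, 21.1 and 24.8 FPKM in KO libraries, against 1.87, 1.17 and 1.96 FPKM in WT libraries.

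DNA methyltransferases were lower. Dnmt3b, which sets methylation de novo in the epiblast, had 28.9, 43.1 and 102 FPKM in KO libraries, against 395, 361 and 315 FPKM in WT libraries (log2 change -2.79, SE 0.40, adjusted p = 0.00145). Dnmt3a had 28.6, 17.7 and 94.4 FPKM in KO libraries, against 307, 245 and 281 FPKM in WT libraries (-2.89, adjusted p = 0.0046). Dnmt3l, their catalytically inactive cofactor, did not pass, at 27.2, 17.1 and 65.4 FPKM in KO libraries and 50.6, 35.9 and 57.2 FPKM in WT libraries (-0.57, adjusted p = 0.341), and KO library 3 was above all 3 WT libraries. Uhrf1, which brings the maintenance enzyme to hemimethylated DNA, fell by 1.38. Tet2, an enzyme that oxidizes methylcytosine, rose by 2.07. Of 14 tested members of the machinery 9 were lower and 1 higher, beside 18.5% and 15.6% over all tested genes. Dnmt3a and Dnmt3b are counted in the formative list too. The call of Uhrf1 ended when the spread came from the 20 embryo libraries (adjusted p = 0.172).

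Genes that DNA methylation holds silent did not move as one. Of 14 germline genes tested 3 were higher and 7 lower, beside 15.6% and 18.5% over all tested genes. Their median log2 change was -1.0. Tex19.1, a germline gene that is also expressed in placenta, had 107, 133 and 128 FPKM in KO libraries, against 21.4, 10.2 and 28.6 FPKM in WT libraries, and Mael, a factor of the piRNA pathway, had 0.470, 0.649 and 0.598 FPKM in KO libraries, against 3.33, 3.71 and 8.06 FPKM in WT libraries. The other 2 that rose, Xlr3a and Xlr4a, lie on chromosome X in families of near-identical copies. Mael and Xlr3a lost their calls when the spread came from the 20 embryo libraries (adjusted p = 0.137 and 0.372). Of the reproductive homeobox (Rhox) genes of chromosome X, which placenta and germline express, all 6 in the tested set were higher. No WT library reached 1 FPKM for any of the 6. Each entered the tested set through its KO values and could not come out lower. Rhox4a had 28.1, 42.7 and 47.1 FPKM in KO libraries, against 0.206, 0.123 and 0.664 FPKM in WT libraries, and Rhox6 48.1, 17.1 and 38.7 FPKM in KO libraries, against 0.249, 0 and 0 FPKM in WT libraries. Rhox4c (4.14) and Rhox4e (4.35) may share reads with Rhox4a and are not taken as independent of it. Rhox1 (1.75) and Rhox9 (2.56), chosen after their values were seen, lost their calls when the spread came from the 20 embryo libraries (adjusted p = 0.283 and 0.082).

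Imprinted genes, which are expressed from 1 parental copy and of which many act in the placenta, changed in both directions. Of 22 tested members 10 were higher and 5 lower, beside 15.6% and 18.5% over all tested genes. H19, a maternally expressed RNA, had 780.1, 455 and 217 FPKM in KO libraries, against 2.57, 3.99 and 2.46 FPKM in WT libraries (log2 change 6.76, SE 0.41, adjusted p = 1.23e-05). Its paternally expressed neighbour Igf2, a fetal growth factor, had 59.6, 56.8 and 68.5 FPKM in KO libraries, against 1.14, 0.920 and 1.07 FPKM in WT libraries (4.93, SE 0.22). H19 and Igf2, which are expressed from opposite parental copies of 1 domain, both rose. Sfmbt2 (4.49), Phlda2 (4.16) and the amino acid transporter Slc38a4 (3.74), all expressed in the placenta and imprinted there, rose as well, Phlda2 being named after its values were seen. Nnat, a membrane protein of neural and endocrine cells, had 1.37, 1.98 and 4.43 FPKM in KO libraries, against 26.3, 19.8 and 26.3 FPKM in WT libraries. The data do not separate parental copies.

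Partners of RBBP5 and the genes that act against them changed in both directions. Of 10 tested genes of the H3K4 methyltransferase complexes 4 were lower and 2 higher, beside 18.5% and 15.6% over all tested genes. Their median log2 change was -0.45. Hcfc1, a cofactor of the SET1 and MLL complexes, had 17.5, 12.1 and 14.8 FPKM in KO libraries, against 51.4, 40.4 and 32.4 FPKM in WT libraries (-1.42, SE 0.23, adjusted p = 0.0016). Cxxc1, the subunit that binds unmethylated CpG, had 3.46, 2.37 and 5.49 FPKM in KO libraries, against 11.5, 12.7 and 9.40 FPKM in WT libraries (-1.4, adjusted p = 0.00545, or 0.122 when the spread came from the 20 embryo libraries). Wdr5 (-0.68) and Men1 (-0.69) passed by little and lost their calls without WT library 1 (-0.54, adjusted p = 0.114, and -0.70, 0.103) and WT library 2 (-0.72, 0.0672, and -0.52, 0.176), Wdr5 also without KO library 2 (-0.59, 0.0574) and Men1 also without KO library 1 (-0.65, 0.0782) and KO library 3 (-0.68, 0.0577). Both lost their calls as well when the spread came from the 20 embryo libraries (adjusted p = 0.487 and 0.556). Of 11 enzymes and partners that remove H3K4 methylation 5 were lower and 1 higher, among them the demethylase Kdm5b (-1.21), its fellow list members Phf21a (-2.10) and Rcor2 (-2.24), which belong to corepressor complexes, and Rcor1 (1.42), which rose. Polycomb genes had 6 of 25 higher and 8 lower. In the canonical complex Phc1 (-2.97), Cbx7 (-1.76), Cbx2 (-1.85), Cbx6 (-1.23) and Pcgf2 (-0.68) fell, while Bmi1 (1.52) and Cbx8 (1.66) rose. Cbx6, Cbx8 and Pcgf2 were added after their values were seen. Cbx7 did not pass when the spread came from the 20 embryo libraries (adjusted p = 0.156).

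Of 15 genes in the table of the naive state, the condition of the ICM before implantation, 8 were under 1 FPKM in every WT library. Those of the 8 that were tested could not come out lower. Of the 10 tested, 6 were higher and 2 lower, beside 15.6% and 18.5% over all tested genes. The 4 with the smallest p that rose were Klf5, a Krüppel-like factor that trophectoderm also needs, with 13.8, 20.3 and 13.8 FPKM in KO libraries against 0.457, 0.0861 and 0.301 FPKM in WT libraries, Fbxo15, Tet2 and Esrrb. Esrrb, an orphan nuclear receptor, is on the extraembryonic ectoderm list too, with 1.35, 5.595 and 4.895 FPKM in KO libraries, against 0.0739, 0 and 0.0452 FPKM in WT libraries. Nanog, chosen after its values were seen, was lower, with 10.8, 1.73 and 3.88 FPKM in KO libraries, against 18.2, 11.4 and 13.4 FPKM in WT libraries (log2 change -1.49, adjusted p = 0.0352), a call that ended without any 1 WT library (adjusted p = 0.138, 0.0689 and 0.0902 without WT 1, 2 and 3), without KO library 2 (-0.99, 0.0732) or KO library 3 (-1.41, 0.0753). Nanog also lost its call with no filter on low values (adjusted p = 0.0533) and when the spread came from the 20 embryo libraries (0.141). Tet2 and Pecam1, the naive marker that endothelium also carries, stand on another list as well.

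Lists of the cell cycle and of energy metabolism had medians nearer to 0. Of 61 respiratory chain genes, subunits of the complexes that make ATP in mitochondria, 18 were higher and 1 lower, with a median log2 change of 0.31, and Ndufa12 of complex I had 262, 249.8 and 263 FPKM in KO libraries, against 104, 118 and 126 FPKM in WT libraries (1.15, SE 0.15). Of 41 DNA replication genes 9 were lower and 1 higher, beside 18.5% and 15.6% over all tested genes. The helicase subunits Mcm2 (-1.41), Mcm3 (-1.13), Mcm7 (-1.02) and Mcm5 (-0.85) fell. The subunits Mcm4 (-0.2, adjusted p = 0.359) and Mcm6 (-0.22, 0.322) did not pass. Mcm4, Mcm5 and Mcm6 were added after their values were seen. Mitotic genes had 3 of 33 higher and 4 lower and a median of 0.00. Cdk4, the kinase that opens G1, had 339, 348 and 460.1 FPKM in KO libraries, against 1317, 1020.0 and 1156 FPKM in WT libraries (-1.61, SE 0.16, adjusted p = 0.000105). Ndufa12 and Cdk4 kept their calls and Mcm2, Mcm3 and Mcm7 lost theirs when the spread came from the 20 embryo libraries (adjusted p = 0.0957, 0.378 and 0.22).

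Genes of glycolysis moved in both directions. The glucose transporter Slc2a1, with 668, 518 and 339.5 FPKM in KO libraries, against 167.5, 180.0 and 187 FPKM in WT libraries, and hexokinase 2, Hk2 (log2 change 1.37), were higher. The exporter of lactate Slc16a3 had 17.6, 16.5 and 13.03 FPKM in KO libraries, against 117, 130 and 101 FPKM in WT libraries (-2.81, SE 0.20, adjusted p = 8.22e-06), and the minor enolase Eno3 fell by 2.90. Of the 17 tested genes 5 were higher and 6 lower, beside 15.6% and 18.5% over all tested genes. The main enolase, Eno1, had 3627 to 4207 FPKM in KO libraries and 3609 to 4294 FPKM in WT libraries and did not pass (-0.06, adjusted p = 0.737), and it was picked after its values were seen. The lysosome list had 11 of 24 higher and 2 lower (median 0.68), with Cd63, a tetraspanin of late endosomes, at 661, 357 and 518 FPKM in KO libraries, against 57.1, 47.3 and 68.9 FPKM in WT libraries, and Tfeb, the regulator of lysosomal genes, at 1.78. Glutathione and oxidative stress genes had 8 of 31 higher and 12 lower. Gsto1 and Gsta1 rose, while the theta class enzymes Gstt2 (-3.91) and Gstt3 (-2.44) fell. The calls of Slc2a1, Hk2 and Tfeb ended when the spread came from the 20 embryo libraries (adjusted p = 0.345, 0.117 and 0.157).

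In the remaining lists most members did not pass, and over all tested genes 15.6% were higher and 18.5% lower. The amino acid stress response had 4 of 21 higher and 3 lower, with Asns, asparagine synthetase, at 293, 624.6 and 259.5 FPKM in KO libraries, against 84.0, 26.4 and 69.5 FPKM in WT libraries. Targets of p53 had 5 of 24 higher and 2 lower, Bax, a trigger of apoptosis, being lower (-1.67) and Gadd45g, a growth arrest gene, higher (2.04). Apoptosis genes had 2 of 15 higher and 4 lower, the unfolded protein response 2 of 16 higher and 1 lower, and cholesterol synthesis 5 of 20 higher and 1 lower. The proteasome had 4 of 45 higher and 7 lower, the lower ones including the activator subunits Psme1 (-2.14) and Psme2 (-2.27). RNA polymerase II and its general factors had 2 of 41 higher and 7 lower, and ribosome biogenesis 0 of 21 higher and 3 lower. In the primitive streak list only Snai1 could be tested and it did not pass (0.76, adjusted p = 0.228), and 0 of 4 neuroectoderm genes reached the mean that was needed. The calls of Asns and Bax ended when the spread came from the 20 embryo libraries (adjusted p = 0.0726 and 0.0846).

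**Figure D4:**
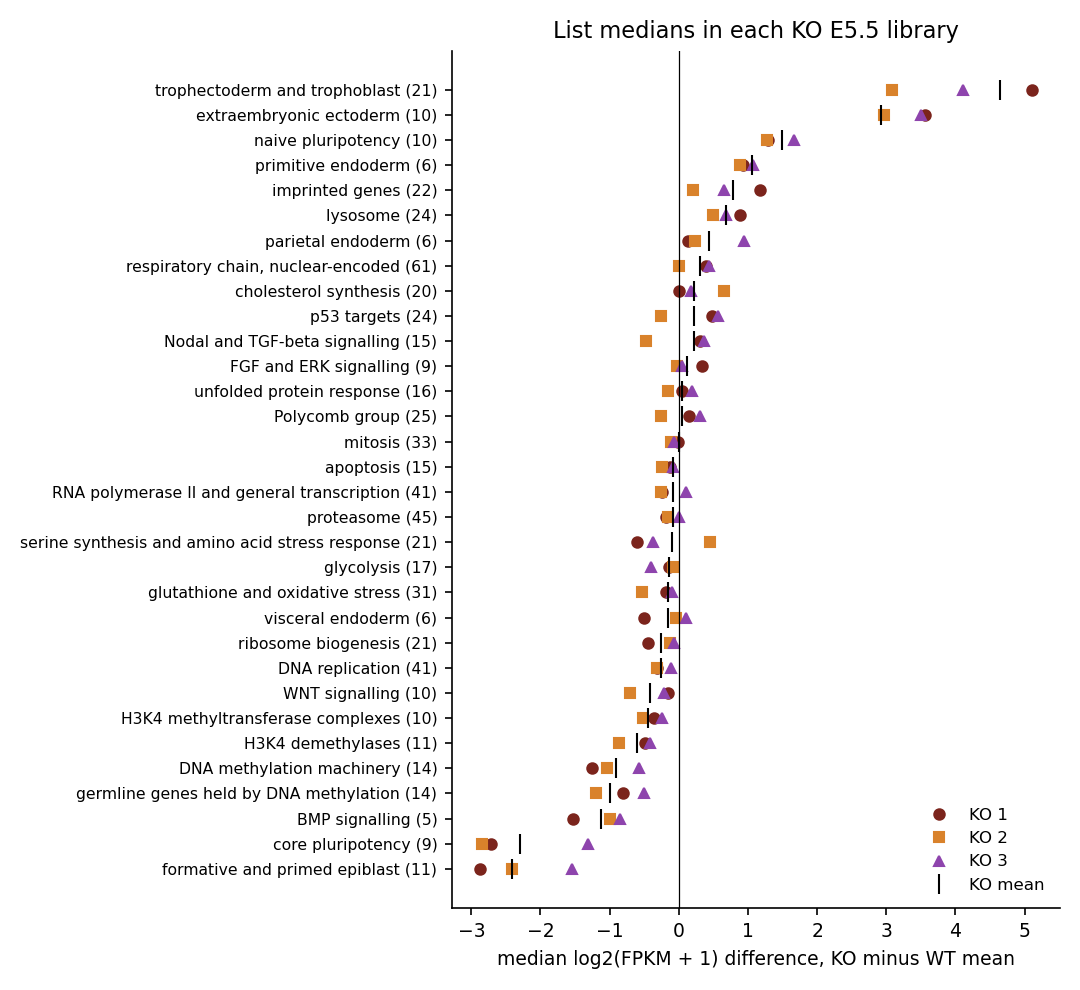
Median difference over the tested members of each list (number in brackets) between each KO E5.5 library and the mean of the WT E5.5 libraries, in log2(FPKM + 1) units. Vertical ticks mark the median log2 change of the KO group. KO library 3 lies nearest to 0 for the core and formative lists but not for the naive list, and KO library 1 highest for the trophoblast list.

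The 3 KO embryos were less alike than the 3 WT embryos. The median SD of log2(FPKM + 1) over a group was 0.33 for KO and 0.22 for WT, and the KO SD was the larger in 4155 of the 5956 genes (69.8%). An SD above 1 was found in 281 genes for KO and 6 for WT. Across genes, Pearson correlations were 0.944 to 0.958 between KO libraries and 0.978 to 0.982 between WT libraries, and 0.788 to 0.894 between a KO and a WT library, given as a description since genes are not replicates. With 3 embryos a group, the difference in spread was not tested.

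**Figure D5:**
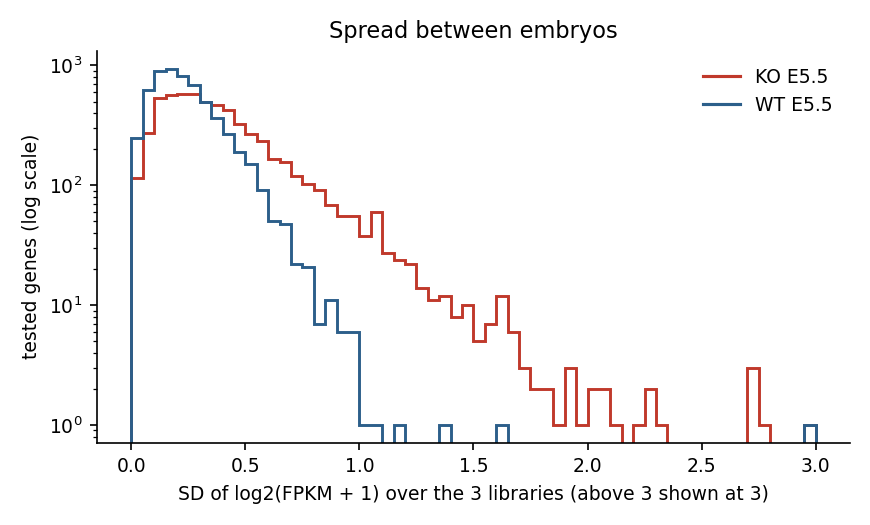
Number of tested genes (log scale) by the SD of log2(FPKM + 1) over the 3 libraries of a group, in bins, for KO (red) and WT (blue) E5.5. Above an SD of 1 lie 281 genes for KO and 6 for WT.

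Each KO embryo had its own position. Among the 1104 genes lower in KO, KO library 3 was the KO library closest to the WT mean for 72.4%, with a median difference of -0.89, against -1.38 and -1.37 in KO libraries 1 and 2. Among the 928 genes higher in KO, KO library 2 was the closest for 53.9% (median difference 1.09) and KO library 3 for 29.3% (1.20). Over all genes KO library 3 correlated with WT libraries at 0.871 to 0.894 and KO library 2 at 0.844 to 0.859. KO library 3 was the highest KO library for 8 of 9 core and 8 of 11 formative genes. KO library 1 was the most extreme for 59.1% of the genes higher in KO, was the highest for 21 of 21 trophoblast genes, and correlated with WT libraries at 0.788 to 0.807. KO library 2 had the lowest trophoblast median (3.08, against 5.11 and 4.11 in KO libraries 1 and 3). Leaving out KO library 1, 2 or 3 gave 1669, 1946 and 2182 called genes. Since the genes were called with these libraries, the shares describe them and test nothing.

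Of the 10 genes with the widest spread among KO embryos, some are known from the placenta. Plac1, an X-linked placental gene, had 358, 7.33 and 31.7 FPKM in KO libraries, against 0, 0.190 and 0.798 FPKM in WT libraries (log2 change 5.16, SE 1.16, adjusted p = 0.0114), a call that ended without WT library 1 (4.98, 0.0548) and KO library 3 (5.41, 0.0711) and with a pseudocount of 5 (3.36, 0.103). Ascl2, an imprinted trophoblast regulator, had 126, 6.57 and 17.3 FPKM in KO libraries, against 8.71, 7.47 and 8.69 FPKM in WT libraries, so that 1 KO embryo alone stood above WT by far, and it did not pass (1.49, adjusted p = 0.225). Slc6a14, an amino acid transporter, had 52.0, 0.368 and 2.55 FPKM in KO libraries and was listed at 0 in each WT library. Hs3st1, a heparan sulfate sulfotransferase, had 60.5, 2.64 and 12.9 FPKM in KO libraries, against 0.564, 0.962 and 0.556 FPKM in WT libraries (3.11, adjusted p = 0.0271), and its call ended without WT library 1, 2 or 3 (3.06, 3.22 and 3.06, adjusted p = 0.0837, 0.0697 and 0.0617), without KO library 3 (3.15, 0.0793) and with a pseudocount of 5 (1.87, 0.107). In these 4 genes KO library 1 was the highest and KO library 2 the lowest.

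Other genes were wide because KO library 3 kept a level close to WT. Itm2a, a membrane protein, had 0.613, 1.07 and 20.2 FPKM in KO libraries, against 11.8, 20.7 and 23.4 FPKM in WT libraries, and Tcea3, a transcription elongation factor, 1.397, 6.59 and 52.97 FPKM in KO libraries, against 45.4, 32.4 and 46.0 FPKM in WT libraries. Neither passed (adjusted p = 0.0927 and 0.131), and without KO library 3 both did (log2 changes -3.37 and -3.29, adjusted p = 5.4e-05 and 0.000552), Itm2a also with replicate number as a block (adjusted p = 0.0233). Id3, described above, was as wide. Myl4, a myosin light chain, had 24.7, 0 and 3.17 FPKM in KO libraries, against 0.435, 0.868 and 1.74 FPKM in WT libraries, and Dcxr, a xylulose reductase, 49.4, 4.58 and 117 FPKM in KO libraries, against 12.7, 12.79 and 18.4 FPKM in WT libraries. In both the KO library 2 lay below all WT libraries and without it they passed (2.41, adjusted p = 0.046, and 2.32, 0.00205). Among WT embryos Snhg9, a small nucleolar RNA host, was widest (0, 35.94 and 15 FPKM in KO libraries, against 11.3, 70.1 and 0 FPKM in WT libraries), followed by Gtsf1l, Setd6, Sf3a2 and Pcca. Only Sf3a2, a splicing factor, passed among these 5 (-1.96).

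The effect at E5.5 differed from that in the E3.5 ICM. With the interaction term of a fit over the 20 embryo libraries, 827 of 5917 genes (14%) differed, 627 upward (10.6%) and 200 downward (3.38%), an upward one meaning a higher KO effect at E5.5. The median difference of all genes was 0.56, so most upward differences lie on a shifted base, and quantile normalization gave 407 upward and 398 downward around a median of -0.07. Of 19 trophoblast genes 16 differed upward, with median KO effects of 4.65 at E5.5 and -0.89 at E3.5. Of 10 formative genes 6 differed downward, with medians of -2.44 at E5.5 and -0.40 at E3.5. The E3.5 medians were below 0 in every list tested but neuroectoderm (0.09) and the respiratory chain (0.90). They were -1.01 for DNA replication and -0.88 for ribosome biogenesis, so -0.89 is not particular to trophoblast genes. The differences use the same E5.5 libraries as the comparison above and are not separate support for it. Elf5 averaged 31.7 FPKM in KO and 0.0150 FPKM in WT E5.5 libraries, and 0.168 FPKM in KO and 0.298 FPKM in WT ICM, a difference of 5.18 (SE 0.41, adjusted p = 9.27e-09). Gsto1 averaged 1570.0 FPKM in KO and 34.5 FPKM in WT E5.5 libraries, and 1299 FPKM in KO and 1361 FPKM in WT ICM, a difference of 5.52 (SE 0.36). KO E5.5 libraries thus stood at the level of the ICM for Gsto1, where WT E5.5 libraries were far below it. H19 and Rhox4a, Rhox4c and Rhox4e were listed at 0 in all 14 ICM libraries.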

How the data were processed

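RNA of single mouse embryos was read with SMART-seq2 and Tn5 libraries on an Illumina HiSeq, per the labels' protocols. The authors deposited 1 table of FPKM values per gene for 33 RNA libraries, already normalized for gene length and library total. STAR 2.7.3 and the build mm10 appear in the submitters' processing notes beside trimming with Trim Galore 0.6.4 and tools for other assays, with no data type given, and the counting step and use of strand are not given in the sources used here. Of 7186 lines, 4 that carried 2 names listed more than once were left out, leaving 7182 genes. Depth is unknown. Of 3716 pairs of low values (0.01 to 0.5 FPKM), 31.35% lay within 0.4% of a ratio of 1 to 6 fragments, against a median of 3.579% at wrong offsets, which gave relative depth only, and no counts were recovered.

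Values were analysed as log2(FPKM + 1), so that folds of low genes are understated, where the mean over the libraries fitted reached 1 FPKM, with limma 3.58.1 (R 4.3.3, robust empirical Bayes with a trend) and Benjamini-Hochberg adjustment over all genes tested at 0.05. Log2 changes are KO minus WT. The E5.5 comparison used 6 libraries. The difference of effects between E5.5 and the E3.5 ICM used the interaction in 1 fit of 20 libraries. Scripts were tested on simulated data. Tables were handled with Python 3.11.15, numpy 2.4.6, pandas 2.3.3 and scipy 1.17.1. Positions and promoters come from RefSeq GRCm38.p6, whose annotation held 5934 of the 5956 symbols tested. Promoters were taken at 1 start per gene, the farthest upstream in the table.

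Members and the 38 gene lists were chosen with earlier results of these data known. Named genes were the 15 each way with the largest change and the 8 each way with the smallest adjusted p (with the higher group averaging 10 FPKM or more), up to 4 called members of each list with more than 6 (otherwise all), 6 each way for the difference of effects, and the 10 and 5 with the largest SD over KO and WT libraries (at least 20 FPKM in the highest). Predicted, clone-named, ribosomal protein, small RNA and Y-linked genes were left out. The rule gave 180 genes, of which some are not reported here. A further 12 were chosen after their values were seen: Krt8, Krt18, Tead4, Phlda2, Dnmt3a, Dnmt3l, Nanog, Sox2, Sall4, Nodal, Rhox1 and Rhox9. Eno1, Mcm4, Mcm5, Mcm6, Cbx6, Cbx8 and Pcgf2 were also picked after their values were seen. Cdx2 and the endoderm factors were named outside the rule too. The 180 genes of the rule and the further 12 are the 192 named genes that were followed over the alternatives. Eno1 and the genes listed with it, Cdx2 and the endoderm factors were not followed. No gene of the mitochondrial ribosome list was found in the table (0 of 96). Alternatives were other pseudocounts, filters, scalings, array weights, a replicate block, 1 fit of 20 libraries and leaving out each library.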

Additional observations from a re-analysis of the deposited data

Results flagged for a closer look

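The KO effect at E5.5 differed from that in the E3.5 ICM for 12 named genes by the interaction term of limma, with no adjusted p above the one given for Mif. The difference, E5.5 minus E3.5 in log2 units, was 5.52 for Gsto1, 6.76 for H19 and 5.18 for Elf5. For Rhox4a, Rhox4c and Rhox4e, which may share reads, it was 4.91, 4.14 and 4.35. H19 and these 3 genes were at 0 in every ICM library, so that their difference is the E5.5 effect itself. It was -2.83 for Nnat, an imprinted membrane protein, -3.4 for Calca, the calcitonin gene, and -2.85 for the lactate exporter Slc16a3. It was -2.81 for Bcl11a, a zinc finger repressor at 0 in every ICM library, and -3.0 for Dtx1, a regulator of Notch signalling.

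For Mif, a cytokine, the difference was -1.64 (adjusted p = 0.0001323). It averaged 1846 FPKM in KO and 3128 FPKM in WT E5.5 libraries, and 2363 FPKM in KO and 1264 FPKM in WT ICM. The effects were -0.76 at E5.5 and 0.88 at E3.5.

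Single ICM libraries stood apart from the other 6 of their group for 5 of these genes by Dixon's criterion, which chance meets in about 1 in 20 groups. That rate does not hold where the other 6 are listed at 0, as for Elf5 and Dtx1 in KO ICM and Calca and Slc16a3 in WT ICM, since any value above 0 then meets it. The highest Gsto1 value in WT ICM was 2245 FPKM. The highest Elf5 values were 1.173 FPKM in KO and 1.135 FPKM in WT ICM. Calca reached 0.146 FPKM in 1 WT ICM library. Slc16a3 reached 0.3339 FPKM in KO and 0.1334 FPKM in WT ICM, and Dtx1 1.136 FPKM in KO and 0.5653 FPKM in WT ICM. All but Gsto1 are levels near 0.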

How the results depend on the processing

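The number of genes called at E5.5 (2032) ran from 1547 to 2220 over the other pseudocounts, filters, scalings and moderations, was 1950 with a replicate block, and was 702 with 1 fit of 20 libraries, 681 of them among the 2032. Leaving out 1 library gave 1221 to 2182 calls. Same-numbered libraries deviated together by correlations of -0.0224, 0.0569 and 0.118, so the numbers were not taken to pair embryos. The 827 differences of effects were 520 with a pseudocount of 0.1, 1664 with array weights and 473 to 1029 without 1 library. Median ratio scaling gave 408 upward and 259 downward. The difference in detected genes ran from -248.7 to -29.67 without 1 library. Among named genes the direction turned for Snhg9 (1.26 without WT 2, 1.35 without KO 1, and -1.82 at the other end, without WT 3) and Gtsf1l (-0.18 without WT 2 or KO 3), neither called, and the cause was not tested. Of the 192 named genes 70 lost their call in the fit of 20 libraries. List medians ran from 3.29 to 5.16 for trophoblast, 1.73 to 5.33 for extraembryonic ectoderm and -2.75 to -1.19 for formative genes, and crossed 0 for lists near it, among them Nodal (-1.1 to 0.56), amino acid stress (-0.52 to 0.11), Polycomb (-0.14 to 0.27) and mitosis (-0.14 to 0.04). The median difference of effects was 0.56, and -0.07 when quantile normalized. With no absolute depth, a level near 0 has no counting interval.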

Other observations

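Chromosomes differed in the share of genes called. On chromosome X 26.6% of the tested genes were higher in KO (64 genes) and 19.5% lower (47 genes), with a median log2 change of 0.15, and the 6 Rhox genes are among those that were higher. On chromosome 17, which carries Pou5f1, 9.57% were higher and 23% lower, with a median of -0.3. The shares over all tested genes were 15.6% higher and 18.5% lower. The part of the 1 female embryo, KO library 1, in the values of chromosome X was not tested.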
